A study of Mus musculus with 1 sample.

Results

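In newborn (P0) WT C57BL/6 mice, 10 genes that break down methylglyoxal or make glutathione were followed across the cell groups of the cerebral cortex by sc-RNA Seq, in which each cell is sequenced on its own. The genes were chosen by symbol as Glo1, Hagh, Park7, Akr1b3, Akr1a1, Aldh2, Aldh9a1, Gclc, Gclm and Gss, and all 10 were found among the 51912 symbols of the table. A single droplet library with a 3′ chemistry was used, with 11062 cells and 90346034 unique molecular identifiers (UMIs), each of which stands for 1 captured transcript. The SERPINA3f/+;Nestin-Cre group and the triplicates that the design names were not analysed here. With 1 library there was no replicate check and no test between cell groups. The intervals given throughout are 95% intervals for counting error only.

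Methylglyoxal is a reactive aldehyde that forms spontaneously from the triose phosphates of glycolysis and modifies proteins and DNA. Glyoxalase 1, the product of Glo1, converts the adduct of methylglyoxal and glutathione into S-lactoylglutathione, and glyoxalase 2, the product of Hagh, releases lactate and gives the glutathione back. Park7 encodes DJ-1, for which a glutathione-independent role against methylglyoxal has been described. Aldo-keto reductases (Akr1b3, aldose reductase, and Akr1a1, aldehyde reductase) and aldehyde dehydrogenases (Aldh2, mitochondrial, and Aldh9a1, cytosolic) reduce or oxidise such aldehydes. Glutathione itself is made by glutamate-cysteine ligase, with its catalytic subunit Gclc and its modifier subunit Gclm, followed by glutathione synthetase, Gss. In the brain, astrocytes are known to supply neurons with precursors of glutathione.

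The promoter sequences of 7 of the 10 members were at hand from RefSeq (build GRCm38.p6). The antioxidant response element core TGACNNNGC, the motif known from targets of the factor Nrf2 such as Gclm, was searched on both strands from 250 bases before to 50 bases after each start site. It was found for 3 of these 7 genes (Hagh, Aldh9a1 and Gclm), against 14% of 27025 genes and 12.4% of 32851 promoters of the same length. For Hagh, promoter 1 held no match and promoter 2 held 1, from base 21 after the start site. No promoter of Akr1b3, Aldh2 or Gclc was at hand. The sequences of Glo1, Aldh9a1 and Gclm are shown, because these were among the 4 members at least 2-fold higher in radial glia and astrocytes than in neurons. The bases before the start site are given on the strand of the gene, with the matched letters in capitals: Glo1 (chr17:30612660-30612909, minus strand) holds no match, Aldh9a1 (chr1:167349741-167349990, plus strand) holds TGACTAGGC from 87 bases before the start, and Gclm (chr3:122245307-122245556, plus strand) holds the motif on the opposite strand, read as GCACCGTCA, from 134 bases before the start. A match of letters is a description and not a measured binding site.
Glo1: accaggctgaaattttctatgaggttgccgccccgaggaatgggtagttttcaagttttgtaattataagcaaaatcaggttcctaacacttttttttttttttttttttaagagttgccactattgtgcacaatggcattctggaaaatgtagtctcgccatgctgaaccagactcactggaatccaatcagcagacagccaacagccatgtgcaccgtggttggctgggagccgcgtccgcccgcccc
Aldh9a1: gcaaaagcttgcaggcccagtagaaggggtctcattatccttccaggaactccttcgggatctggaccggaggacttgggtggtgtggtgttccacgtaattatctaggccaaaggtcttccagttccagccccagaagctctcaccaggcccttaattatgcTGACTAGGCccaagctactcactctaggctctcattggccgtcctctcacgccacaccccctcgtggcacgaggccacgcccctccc
Gclm: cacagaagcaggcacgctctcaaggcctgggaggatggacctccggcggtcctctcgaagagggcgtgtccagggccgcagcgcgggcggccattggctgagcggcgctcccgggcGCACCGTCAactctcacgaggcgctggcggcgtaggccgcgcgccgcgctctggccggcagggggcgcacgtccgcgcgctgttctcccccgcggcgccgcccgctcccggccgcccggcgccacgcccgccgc

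Cells were sorted into 12 gates by UMIs of marker genes, none of them a member. Of the 7440 cells with at least 4000 UMIs of nuclear genes and a mitochondrial share under 10%, 3994 (53.7%) passed exactly 1 gate, 3440 passed none and 6 passed several and were left out. The gates held 2092 layer II/III, 426 layer IV, 89 layer V and 662 layer VI neurons, 41 Nr4a2-positive cells (the gate meant for layer VIb), 146 Eomes-positive newborn neurons, 78 Lhx6 interneurons, 70 interneurons with Adarb2, Prox1 or Sp8, 79 dividing progenitors, 21 dividing and 91 non-dividing oligodendrocyte precursors, and 199 non-dividing cells with Slc1a3, Fabp7 and Aldoc, Hopx or Mfge8. The last group is called radial glia and astrocytes, which these genes do not separate at birth. Median depth ran from 5120 nuclear UMIs in the Adarb2, Prox1 and Sp8 interneurons to 19851 in layer V neurons, so each cell was thinned to 4000 UMIs, and levels are UMIs scaled to 1000000 of these (CPM). Capture at the 3′ end does not scale with transcript length. How efficiently each gene was captured was not measured, and levels of different genes are not ranked against each other.

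Genes outside the gates were used to check the labels. All 8 radial glia and astrocyte genes, all 6 oligodendrocyte precursor genes, all 8 genes of dividing cells and all 5 of newborn neurons were highest in the gate of that name, as were 4 of 5 for each interneuron gate and 3 of 4 for layers V and VI. Of the layer IV genes only Inhba was highest in its gate, and of the layer II/III genes (Pou3f1, Mdga1, Dok5 and Plxnd1) none was, with 3 of the 4 highest in layer IV. Of the excitatory neuron genes, Slc17a7 was highest in the Nr4a2-positive gate, Bhlhe22 and Sla in layer V, and Slc17a6 and Nrn1 in newborn neurons. None of the 4 layer VIb genes (Moxd1, Lpar1, Tmem163 and Svil) was highest in the Nr4a2-positive gate. Tmem163 had 61.0 CPM there and 61.6 CPM in newborn neurons, its highest gate. Of the 41 Nr4a2-positive cells, 18 carried 3 or more UMIs of endothelial genes (Cldn5, Flt1, Pecam1, Ly6c1 and Itm2a). The values of the Nr4a2-positive gate therefore do not describe layer VIb. Cells with 3 or more UMIs of an endothelial, mural, microglial or blood list numbered 6 of 79 among dividing progenitors, 28 of 199 among radial glia and astrocytes, 25 of 3310 among all layer neurons and 0 of 112 among oligodendrocyte precursors. In radial glia and astrocytes, 27 of these 28 cells were picked by the mural list, in which Pdgfrb gave 211 of the 234 UMIs, and a single cell held 99.8% of the blood UMIs. Microglial genes were at 0 in the thinned radial glia, dividing and oligodendrocyte precursor gates. In layer neurons the striatal-type inhibitory list rested on Foxp1, which made up 95% of its UMIs, with Isl1 at 0. The Foxp1 share was 77.4% in interneurons, with 1 Isl1 UMI, and 64.5% in dividing progenitors, with Isl1 at 0.

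Glo1 had its highest level in radial glia and astrocytes, at 256 CPM (222–294, 204 UMIs), and its lowest in layer IV and layer II/III neurons, at 37.0 (28.4–47.3) and 37.4 CPM (33.4–41.8). Dividing progenitors had 127 CPM (90.4–172) and non-dividing oligodendrocyte precursors 96.2 CPM (67.0–134). Layer V neurons had 73.0 CPM (47.7–107), newborn neurons 70.2 (50.4–95.2), the Adarb2, Prox1 and Sp8 interneurons 53.6 (29.98–88.4), Lhx6 interneurons 51.3 (29.3–83.3), layer VI neurons 46.5 (38.6–55.4) and the Nr4a2-positive gate 42.7 (17.2–87.9). In this order only the step from radial glia and astrocytes to dividing progenitors exceeded counting error, with a ratio of 2.02 (1.44–2.92), and every other neighbouring pair had an interval that held 1. Within the layers, layer V stood at 1.95 times (1.26–2.92) the layer II/III level. The 8 check genes of radial glia and astrocytes summed to 160 CPM in layer V and 35.9 CPM in layer II/III neurons, and their part in this ratio was not tested.

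The share of cells with a Glo1 UMI was likewise highest in radial glia and astrocytes. At 4000 UMIs per cell, 66.3% of radial glia and astrocytes had at least 1 Glo1 UMI and 25.6% had 2 or more, against 14.8% and 1.21% of layer neurons. The share was 39.2% in dividing progenitors, 29.7% in non-dividing oligodendrocyte precursors and 14.9% in interneurons. As a yardstick for free RNA, the astrocyte gene Aldh1l1 was found in 65.8% of radial glia and astrocytes and in 0.423% of layer neurons at the same depth, and Glo1 in 14.8% of layer neurons. Other glial transcripts gave larger shares: in layer II/III neurons Slc1a3 was found in 6.55% and Fabp7 in 12.5% of cells, close to the 13.9% for Glo1. Fabp7 had 18437 CPM in radial glia and astrocytes and 50.2 CPM in layer II/III neurons, against 256 and 37.4 CPM for Glo1. The part of free RNA in the neuronal Glo1 level was not tested.

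**Figure D1:**
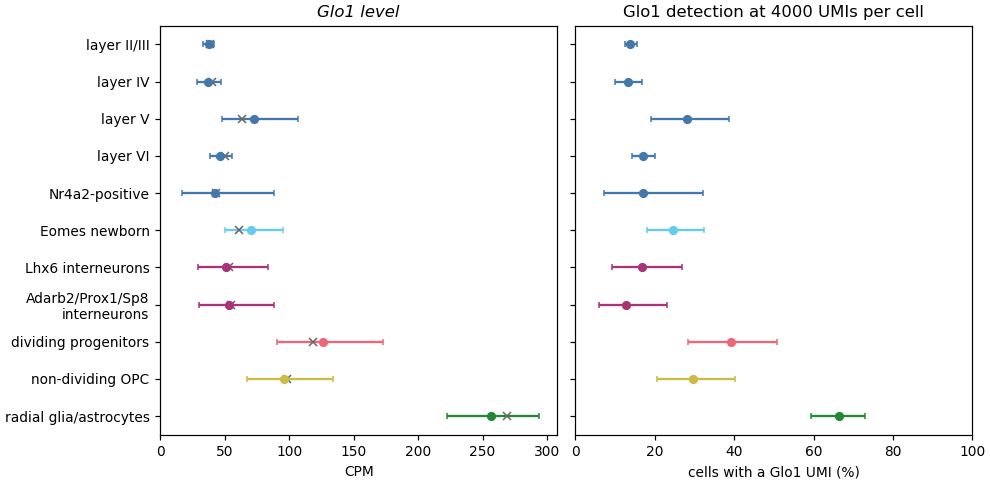
Glo1 in 11 gates of the P0 WT cortex. Left, the level in CPM (circles, cells thinned to 4000 UMIs, bars are 95% Poisson intervals; crosses, unthinned cells); right, the percent of cells with a Glo1 UMI after thinning (bars are 95% Clopper-Pearson intervals). Radial glia and astrocytes, at 256 CPM and 66.3% of cells, lie to the right of all other gates.

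Relative to the 5 layer gates pooled (40.2 CPM), Glo1 was 6.38-fold (5.40–7.51) in radial glia and astrocytes, 3.15-fold (2.22–4.35) in dividing progenitors and 2.33-fold (1.66–3.20) in oligodendrocyte precursors, of which the 21 dividing cells gave 7 UMIs. Interneurons were at 1.30-fold (0.877–1.87). The unthinned ratios were 6.35, 2.80, 2.27 and 1.27. Among dividing progenitors, the 36 cells with Slc1a3 and without Eomes had 181 CPM (118–265), at 0.705 (0.449–1.06) of the level of radial glia and astrocytes, an interval that holds 1. The 25 dividing cells with at least 2 Eomes UMIs gave 8 Glo1 UMIs. The median gene had a ratio of 0.920 between radial glia and astrocytes and layer neurons, and Glo1 was 6.93-fold relative to it.

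Of the 9 members with at least 50 UMIs over both sides, 4 were at least 2-fold higher in radial glia and astrocytes than in layer neurons and 1 was at least 2-fold lower. Over all 11632 genes with that many UMIs, 17.6% were at least 2-fold higher and 24.3% at least 2-fold lower. The median ratio of the 9 members was 1.83, beside 0.920 over all genes. The 4 higher members were Glo1, the aldehyde dehydrogenases Aldh2 and Aldh9a1, and the ligase subunit Gclm, and the lower one was aldose reductase, Akr1b3. Gclm was not past 2-fold in cells with at most 3 UMIs of stress genes, at 1.64 (1.08–2.38).

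Aldh2, the mitochondrial aldehyde dehydrogenase, followed Glo1 most closely. Its level was 122 CPM (98.8–149) in radial glia and astrocytes, 75.9 CPM (48.7–113) in dividing progenitors and between 3.57 and 35.3 CPM in the 9 remaining gates. It was 6.30-fold (4.94–7.99) the layer neuron level in radial glia and astrocytes and 3.93-fold (2.47–5.98) in dividing progenitors, while oligodendrocyte precursors were at 1.5-fold (0.788–2.61). The precursor ratio was 1.94 (1.35–2.71) without thinning and ran from 1.29 to 2.55 over 14 alternative settings. Both steps at the top of its order, from radial glia to dividing progenitors and from these to Lhx6 interneurons, had intervals above 1 (1.02–2.62 and 1.02–4.87). This order holds for the thinned cells only. Without thinning, non-dividing oligodendrocyte precursors had 48.4 CPM of Aldh2, from 33 UMIs, and dividing progenitors 62.0 CPM. Between the interneuron gates Aldh2 gave 11 UMIs in 78 Lhx6 cells and 1 UMI in 70 cells with Adarb2, Prox1 or Sp8. Over the 11 gates the Pearson correlation of Glo1 and Aldh2 on the log2(CPM + 10) scale was 0.830, which is a description of gates from 1 library.

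Aldh9a1, a cytosolic dehydrogenase that also acts in carnitine synthesis, also had its highest level in radial glia and astrocytes, although the step to the next gate, Lhx6 interneurons, had a ratio of 1.96 (0.858–5.23). It had 44.0 CPM (30.6–61.2, 35 UMIs) there and 8.23 CPM (6.76–9.93) in layer neurons, a ratio of 5.34 (3.54–7.88). Dividing progenitors gave 2 UMIs, or 6.33 CPM (0.767–22.9), with a ratio to layer neurons of 0.769 (0.0919–2.84). Without thinning this last ratio was 1.83 (1.07–2.94), which lies within the interval of the thinned ratio.

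Akr1b3, aldose reductase, had a pattern of its own, with a division by layer. Layer II/III and layer IV neurons had 50.2 CPM (45.5–55.2) and 54.0 CPM (43.5–66.2), and layer V and layer VI neurons had 5.62 CPM (0.680–20.3, 2 UMIs) and 9.44 CPM (6.11–13.9, 25 UMIs). Layer VI was at 0.188 (0.120–0.282) and layer V at 0.112 (0.0135–0.407) of the layer II/III level. Cells with an Akr1b3 UMI made up 18% of upper-layer and 3.91% of deep-layer neurons at equal depth. The Nr4a2-positive gate gave 6 UMIs, 36.6 CPM (13.4–79.6), and all 6 came from the 23 of its cells with fewer than 3 endothelial UMIs.

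Akr1b3 was the only member at least 2-fold apart between deep (layers V, VI and Nr4a2-positive) and upper (layers II/III and IV) neurons, at 10.4 and 50.8 CPM and a ratio of 0.205 (0.140–0.292), out of 9 members with enough UMIs. None was at least 2-fold higher. Of 11211 genes, 5.59% were at least 2-fold lower and 6.73% at least 2-fold higher in deep layers, and 1.39% had a lower ratio than Akr1b3. The median ratio was 1.32 over the 9 members and 1.03 over all genes, in thinned cells. Without thinning, Gclm fell from 1.36 (1.17–1.58) to 1.16 (1.06–1.27), below its thinned interval. Aldh2 and Aldh9a1 rose from 1.39 and 1.32 to 1.62 and 1.81. The Akr1b3 ratio stayed between 0.181 and 0.265 over 14 alternative settings.

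Outside the layers, Akr1b3 had 63.3 CPM (38.7–97.8) in dividing progenitors, 46.7 (27.2–74.8) in non-dividing oligodendrocyte precursors, 35.96 (22.3–54.97) in newborn neurons, 32.1 (14.7–61.0) in Adarb2, Prox1 and Sp8 interneurons and 25.6 (11.1–50.5) in Lhx6 interneurons. Radial glia and astrocytes had 17.6 CPM (9.62–29.5, 14 UMIs), which was 0.427 (0.232–0.723) of the pooled layer neurons. This lay below the upper layers, while the step down to layer VI had a ratio of 1.86 (0.895–3.72). Dividing cells with Slc1a3 and without Eomes had 69.4 CPM of Akr1b3, 3.95 times (1.57–9.56) the level of non-dividing radial glia and astrocytes. That ratio rested on 10 and 14 UMIs.

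The remaining methylglyoxal members varied less. Akr1a1 was found in every gate at 320 CPM (260–388, dividing progenitors) to 543 CPM (436–668, Nr4a2-positive gate). It was 1.32-fold (1.24–1.40) in deep relative to upper layers, the opposite direction from Akr1b3, and 0.959-fold (0.850–1.08) in radial glia and astrocytes relative to layer neurons.

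The level of Park7 was graded over the gates. Radial glia and astrocytes (433 CPM, 389–482), dividing progenitors (430, 361–509), layer V neurons (421, 357–494), the Nr4a2-positive gate (421, 327–533) and newborn neurons (406, 356–461) were the highest, and neighbours among them did not differ beyond counting error. Without thinning, dividing progenitors had 360 CPM and newborn neurons 377 CPM. Radial glia and astrocytes were then at 1.14 times (1.01–1.30) the level of dividing progenitors. The step from newborn to layer IV neurons (335, 308–363) had a ratio of 1.21 (1.04–1.41), and layer II/III (275, 264–287) and layer VI neurons (256, 237–276) lay lower, with layer IV at 1.22 times (1.11–1.33) the layer II/III level. Park7 was 1.52-fold (1.36–1.70) in radial glia and astrocytes relative to layer neurons, under the 2-fold limit.

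Hagh, which encodes the enzyme that follows glyoxalase 1, did not share the Glo1 pattern. It ran from 22.5 CPM (9.70–44.3) in layer V neurons to 54.9 (25.1–104) in the Nr4a2-positive gate, and no neighbouring pair in its order differed beyond counting error. Neighbours in a sorted order are the closest pairs, so this does not show equal levels. Layer IV was at 1.34 times (1.02–1.72) the layer II/III level. Dividing progenitors were at 1.15 (0.607–1.98) of layer neurons, and at 1.40 (1.04–1.86) without thinning. Radial glia and astrocytes had 37.7 CPM (25.4–53.8) and layer neurons 35.8 CPM (32.7–39.2), a ratio of 1.05 (0.702–1.52), whose upper bound lies below the lower bound for Glo1. The Pearson correlation of Hagh with Glo1 over the 11 gates was -0.13.

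**Figure D2:**
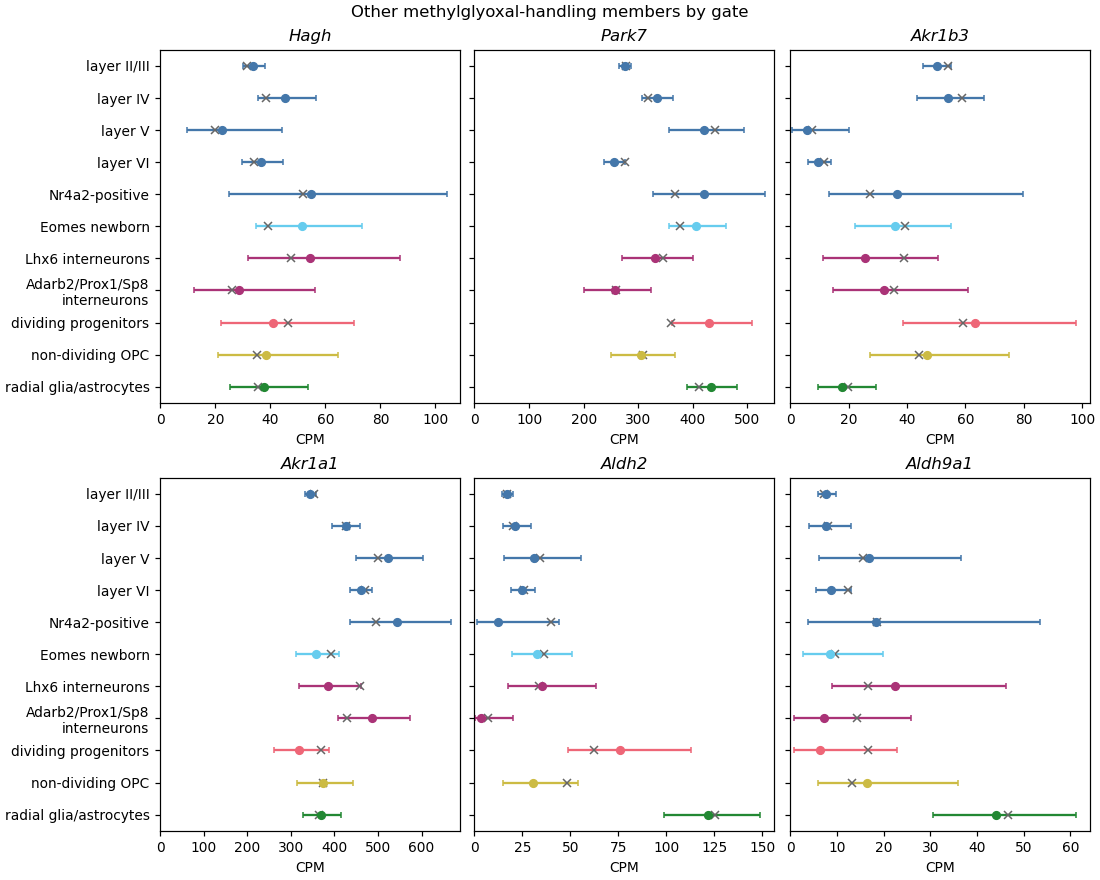
Levels of Hagh, Park7, Akr1b3, Akr1a1, Aldh2 and Aldh9a1 in 11 gates, in CPM on axes that start at 0. Circles are thinned cells with 95% Poisson intervals and crosses unthinned cells. Akr1b3 is low in layers V and VI (5.62 and 9.44 CPM) and near 50 CPM in layers II/III and IV, whereas Aldh2 and Aldh9a1 are highest in radial glia and astrocytes (122 and 44.0 CPM).

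In thinned cells, the 3 glutathione synthesis members summed to 210 CPM (179–244) in radial glia and astrocytes and 165 CPM (123–216) in dividing progenitors. These intervals overlap. The sum was 143 CPM (110–182) in oligodendrocyte precursors, 110 CPM (84.7–140) in interneurons and 98.0 CPM (92.7–103) in layer neurons. Without thinning, Gclc had 51.2 CPM in radial glia and astrocytes and 57.4 CPM in dividing progenitors, and Gss 11.1 CPM in both. For each of the 3 members, the interval of the unthinned ratio between these gates held 1. Gclm, the modifier subunit, had 146 CPM (120–175) in radial glia and astrocytes, 101 CPM (69.3–143) in dividing progenitors and 65.7 CPM (61.4–70.2) in layer neurons. Its ratio to layer neurons was 2.22 (1.81–2.69) in radial glia and astrocytes and 1.54 (1.05–2.19) in dividing progenitors. Without thinning, Gclm had 135 CPM in radial glia and astrocytes and 126 CPM in dividing progenitors. The ratios to layer neurons were then 2.11 (1.82–2.44) and 1.97 (1.64–2.34). Among layers, layer VI neurons had 83.5 CPM (72.8–95.2), 1.38 times (1.18–1.62) the layer II/III level, in thinned cells. For the deep layers pooled, Gclm was at 1.36 of the upper layers, and at 1.16 without thinning.

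Gclc, the catalytic subunit, had 57.7 CPM (35.7–88.2) in non-dividing oligodendrocyte precursors, 54.0 CPM (39.1–72.8) in radial glia and astrocytes and 53.8 CPM (31.3–86.1) in dividing progenitors, and these did not differ beyond counting error. Layer neurons had 29.5 CPM (26.7–32.6). The ratios to layer neurons were 1.97 (1.27–2.92) for the 2 oligodendrocyte precursor gates pooled, 1.83 (1.30–2.51) for radial glia and astrocytes and 1.82 (1.05–2.95) for dividing progenitors, and 1.14 (0.691–1.79) for interneurons. The dividing oligodendrocyte precursors alone gave 5 UMIs. Without thinning, dividing progenitors were at 2.06 (1.57–2.67). In cells with at most 3 UMIs of stress genes, the ratio in radial glia and astrocytes was 1.17 (0.533–2.25). Gclm in oligodendrocyte precursors was at 1.19 (0.823–1.67).

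Gss, the last enzyme of the synthesis, was near the limit of detection. It gave 277 UMIs in all 11062 cells and 36 UMIs in 3310 thinned layer neurons, and after thinning it stayed under the limit of 50 UMIs in each comparison. Radial glia and astrocytes gave 8 UMIs in 199 cells, or 10.1 CPM (4.34–19.8) against 2.72 CPM (1.90–3.76) in layer neurons, a ratio of 3.70 (1.48–8.09). Without thinning, Gss passed that limit, and its ratios to layer neurons were 4.97 (2.76–8.45) in radial glia and astrocytes, 4.95 (2.46–9.12) in dividing progenitors and 3.44 (1.34–7.42) in oligodendrocyte precursors, from 17, 12 and 7 UMIs against 81. Dividing progenitors and non-dividing oligodendrocyte precursors gave 3 UMIs each, and the 21 dividing oligodendrocyte precursors gave 0, for which the 95% upper bound is 43.9 CPM.

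**Figure D3:**
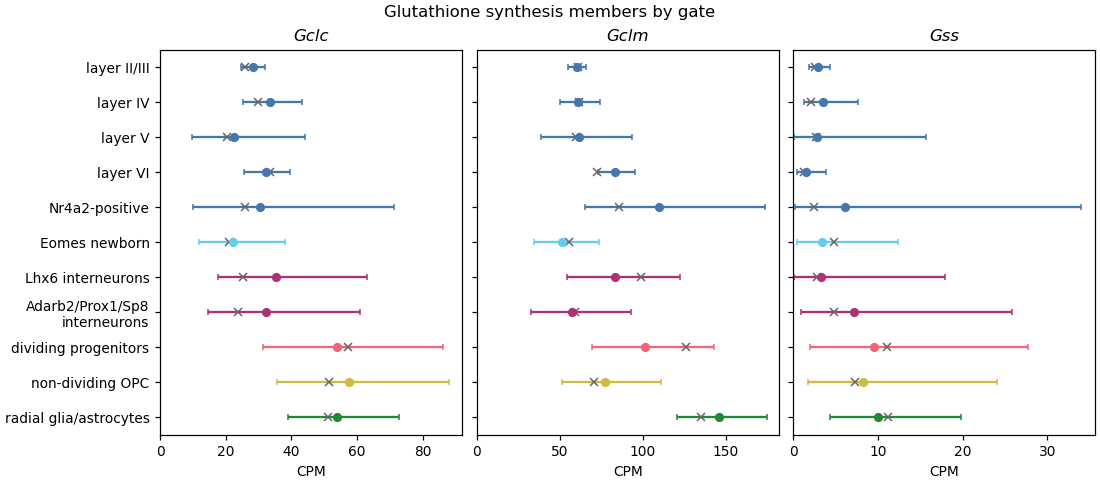
Levels of Gclc, Gclm and Gss in 11 gates, in CPM on axes that start at 0. Circles are thinned cells with 95% Poisson intervals and crosses unthinned cells. Gclm reaches 146 CPM in radial glia and astrocytes, and Gclc lies between 53.8 and 57.7 CPM in the 3 non-neuronal gates.

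A list of early response and stress genes (Fos, Jun, Egr1, Atf3, Hspa1a and Hspa1b) also differed between the gates. Fos, Jun and Egr1, the 3 of 6 with at least 50 UMIs, were each at least 2-fold higher than in layer neurons in radial glia and astrocytes, dividing progenitors and oligodendrocyte precursors. The summed level of the 6 genes was 2249 CPM in radial glia and astrocytes, 1116 CPM in oligodendrocyte precursors and 1054 CPM in dividing progenitors, against 168 CPM in layer neurons. It was also 646 CPM in newborn neurons and 466 CPM in interneurons, where 2 of the 3 genes were at least 2-fold higher (and Jun lower in newborn neurons). In cells with at most 3 UMIs of these genes, 65 radial glia and astrocytes and 3224 layer neurons remained. There Glo1 was at 5.96-fold (4.50–7.77), Aldh2 at 6.07-fold (4.01–8.89) and Aldh9a1 at 6.61-fold (3.50–11.6). Gclm was no longer past 2-fold, and the Gclc interval held 1. The part of these genes in the Gclm and Gclc ratios was not tested. Akr1b3 was at 0.189 (0.0229–0.687), from 2 UMIs. Without the cells that carried UMIs of other cell types, Glo1 was at 6.34-fold in radial glia and astrocytes and 3.09-fold in dividing progenitors.

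In dividing progenitors, 2 of 9 members (Glo1 and Aldh2) were at least 2-fold higher than in layer neurons and 0 were at least 2-fold lower, beside 15.6% and 21.4% of 11393 genes, with a median ratio of 1.54 over the members and 0.960 over all genes. The count was 4 without thinning, with Gclc (2.06) and Gss (4.95), and 4 at 2000 UMIs per cell, with Gclc (2.24) and Hagh (2.09). In another random draw of UMIs it was 3. In oligodendrocyte precursors, 1 of 9 members (Glo1) was at least 2-fold higher and 0 were lower, beside 13.8% and 19.3% of 11416 genes, with medians of 1.25 and 0.992. This count depended on the random draw of UMIs: in each of 3 other draws Aldh2 (2.17 to 2.55) and Gclc (2.02 to 2.42) were also past 2-fold, and without thinning Gss was. In interneurons, 0 of 9 members were past 2-fold in either direction, beside 6.06% of 11369 genes higher and 11.4% lower, with medians of 1.12 and 0.995. The interneuron ratios of the 9 members ran from 0.698 (0.403–1.13) for Akr1b3 to 1.85 (0.822–3.64) for Aldh9a1, with intervals that all held 1. Without thinning, the intervals of Akr1a1 (1.12, 1.02–1.23), Gclm (1.32, 1.07–1.62) and Aldh9a1 (1.74, 1.02–2.80) lay above 1. Taken singly, Lhx6 interneurons had Aldh9a1 at 2.73 (1.07–5.81, 7 UMIs), and those with Adarb2, Prox1 or Sp8 had Akr1a1 at 1.26 (1.06–1.5). In newborn neurons 0 of 9 members were past 2-fold, beside 10.5% higher and 16.1% lower of 11360 genes. Glo1 was there at 1.75 (1.24–2.40) and Park7 at 1.43 (1.24–1.63). Without thinning they were at 1.44 (1.13–1.81) and 1.28 (1.16–1.40).

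**Figure D4:**
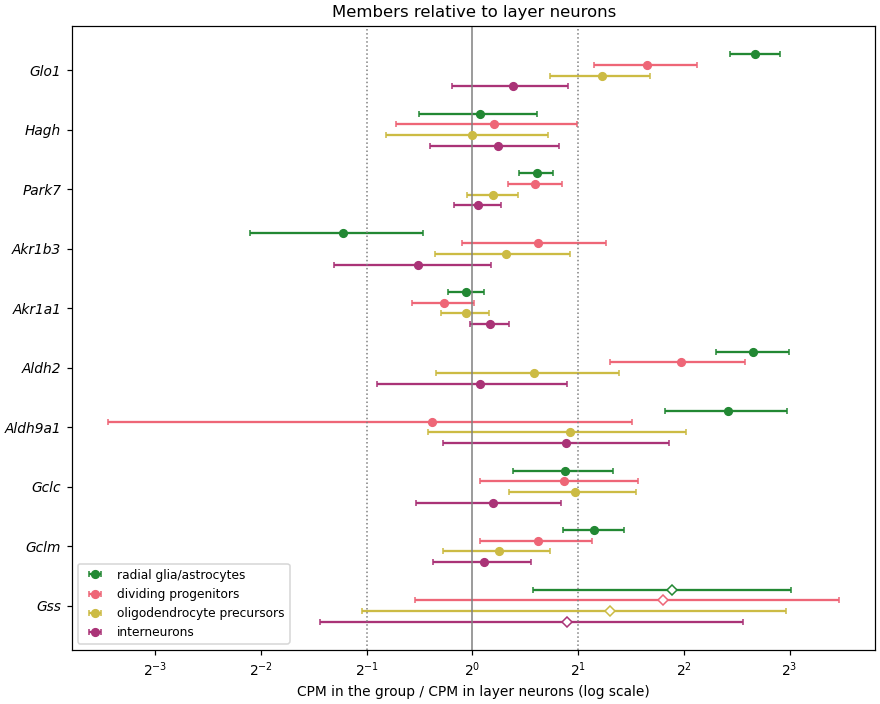
Ratio of the level of each member to that in layer neurons, on a log scale, for radial glia and astrocytes, dividing progenitors, oligodendrocyte precursors and interneurons. Bars are 95% intervals for counting error, dotted lines mark 2-fold, and open symbols mark Gss, which had under 50 UMIs. Glo1, Aldh2, Aldh9a1 and Gclm lie beyond 2-fold in radial glia and astrocytes, and Akr1b3 lies on the other side.

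The number of members found per cell also varied. At 4000 UMIs, a cell held on average 3.55 of the 10 members in radial glia and astrocytes, 3.22 in dividing progenitors, 2.79 in oligodendrocyte precursors, 2.47 in interneurons and 2.34 in layer neurons, among which the Nr4a2-positive gate had 2.88 and layer V 2.63. No member was found in 0.503% of radial glia and astrocytes and in 3.29% of layer neurons. The 7 methylglyoxal members summed to 1280 CPM (1203–1361) in radial glia and astrocytes and 814 CPM (799–830) in layer neurons. The sum was 1093 CPM (987–1207) in layer V neurons, 1128 CPM (971–1303) in the Nr4a2-positive gate and 1063 CPM (953–1183) in dividing progenitors. The intervals of these 3 gates overlap. Those of layer V neurons and the Nr4a2-positive gate also overlap the interval of radial glia and astrocytes. Akr1a1 and Park7 gave 5098 and 3769 of the 10783 UMIs in layer neurons. In radial glia and astrocytes they gave 294 and 345 of 1019 UMIs.

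The 5 genes whose levels over the 11 gates were most like those of Glo1, among 10538 genes, were Slc15a2, a peptide transporter (Pearson r of 0.972), Sdc2, a syndecan (0.970), Apoe, an apolipoprotein of astrocytes (0.969), Tnfaip8 (0.968) and Tgfb2, a growth factor (0.968). All points came from 1 library.

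Other genes of these pathways were counted in the same way between radial glia and astrocytes and layer neurons, again beside 17.6% higher and 24.3% lower of all genes. Of 15 further methylglyoxal and glyoxalase genes, 9 had enough UMIs, 2 were at least 2-fold higher and 2 lower, with a median ratio of 1.56. Aldh7a1, which acts in lysine breakdown, was the farthest upward at 89.2 and 4.83 CPM, a ratio of 18.5 (13–26.3), and Aldh3a2 was at 2.85 (1.41–5.30). The lower genes were Aldh1b1, a mitochondrial dehydrogenase, at 0.102 (0.00257–0.577), and Ldhd, with 0 UMIs in radial glia and astrocytes and 80 in layer neurons.

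Of 7 genes of cysteine supply with enough UMIs, 3 were higher and 1 lower, with a median of 1.68. Cbs, the first enzyme of transsulfuration, which makes cysteine from homocysteine, had 219 CPM in radial glia and astrocytes and 3.85 CPM in layer neurons, a ratio of 56.7 (41.3–79.1). Slc1a4, a neutral amino acid exchanger, was at 9.74 (7.52–12.6), and Slc7a11, the cystine transporter, at 2.72 (1.18–5.55). Slc1a1, a neuronal transporter of glutamate and cysteine, was at 0.026 (0.000657–0.145), with 1 UMI in radial glia and astrocytes.

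Of the glutathione S-transferases, which join glutathione to other molecules, 10 had enough UMIs, and 6 of them were at least 2-fold higher and 2 lower (Gsto1 and Mgst3). Mgst1 and Gsta4 reached 50 UMIs only through radial glia and astrocytes, where they were high, and so had to differ, which adds to this count. Mgst1 had 98 and 5 UMIs, a ratio of 326 (135–1026), Gsta4 had 51 and 5 UMIs, a ratio of 170 (68.1–545), and Gstm1 had 310 and 7.55 CPM, a ratio of 41.1 (32.4–52.4). The Gstm genes are close copies of each other, and how reads shared between them were counted is not given in the sources used here.

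Of 13 genes of glutathione use, recycling and breakdown, 5 were higher and 3 lower, among them Gpx8, which also had enough UMIs only through radial glia and astrocytes. Gpx8, a peroxidase of the endoplasmic reticulum, was at 96.9 (57.5–173) and Gpx7 at 4.60 (3.05–6.77), whereas Ggct, which cleaves gamma-glutamyl peptides, was at 0.0459 (0.00116–0.258). The Nrf2 pathway list had 1 of 8 genes past 2-fold, Prdx1, a peroxiredoxin, at 2.46 (2.22–2.72), and a median of 0.852. Tkt, transketolase, was at 1.98 (1.77–2.21) and G6pdx, which feeds the NADPH supply, at 0.514 (0.233–0.990).

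**Figure D5:**
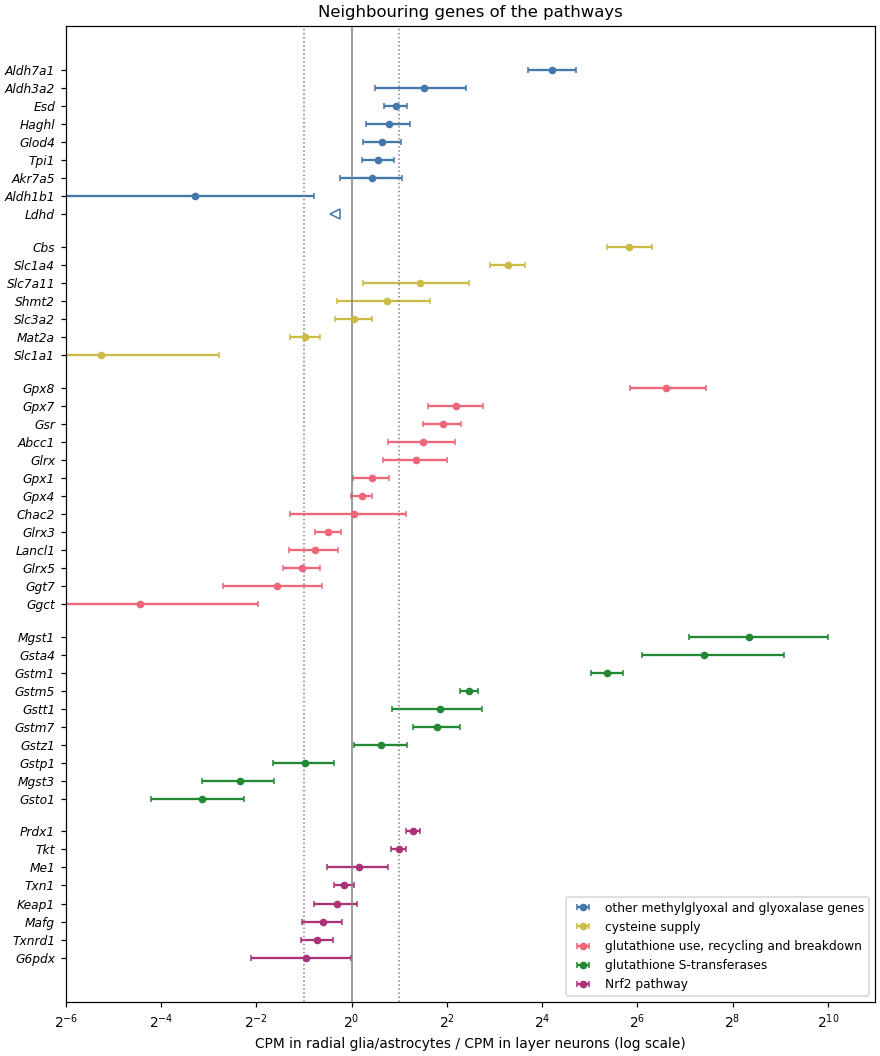
Ratio of radial glia and astrocytes to layer neurons, on a log scale, for genes of 5 lists with at least 50 UMIs. Bars are 95% intervals for counting error, cut at the left edge for Aldh1b1, Slc1a1 and Ggct, and the open triangle marks the upper bound for Ldhd, which had 0 UMIs in radial glia and astrocytes. Mgst1, Gsta4, Gpx8, Cbs and Gstm1 lie farthest to the right.

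In dividing progenitors the same lists gave 2 higher and 1 lower of 9, 3 and 1 of 7, 5 and 2 of 12, 3 and 2 of 8, and 0 of 8, beside 15.6% higher and 21.4% lower of all genes, in the order methylglyoxal genes, cysteine supply, glutathione use, transferases and Nrf2 pathway. Tpi1, which makes and uses the triose phosphates, was at 2.06 (1.49–2.78), Aldh7a1 at 5.24 (2.17–10.95), Cbs at 18.9 (11–31.5), Gpx7 at 3.75 (1.82–6.94), Glrx at 3.66 (1.90–6.44) and Gstm1 at 11.3 (7.11–17.5). On the lower side, Gsto1 was at 0.114 (0.0310–0.293), Slc1a1 at 0.196 (0.0404–0.577), Ggt7 at 0.284 (0.0583–0.835) and Aldh1b1, from 1 UMI, at 0.257 (0.00647–1.45). In oligodendrocyte precursors the lists gave 1 higher and 2 lower of 9, 1 and 2 of 7, 2 and 1 of 12, 2 and 3 of 8, and 0 of 8, beside 13.8% higher and 19.3% lower of all genes. There Aldh7a1 was at 6.00 (3.03–11), Slc1a4 at 2.97 (1.69–4.90) and Gstm1 at 4.14 (2.18–7.27), while Ggct was at 0.163 (0.0197–0.594) and Gsto1 at 0.221 (0.110–0.397). Cbs, Slc7a11 and Gstt1, 3 of the genes counted as lower, gave 0 UMIs in oligodendrocyte precursors after thinning, against 51, 55 and 60 in layer neurons, with upper bounds of 2.22, 2.05 and 1.87 on the ratio, so that counting error does not exclude equal levels, and without thinning Cbs was at 2.08 (0.821–4.41). In interneurons they gave 0 higher and 3 lower of 9, 0 and 2 of 7, 1 and 2 of 12, 0 of 8, and 0 and 1 of 8, beside 6.06% higher and 11.4% lower of all genes. Glrx, a glutaredoxin, was there at 3.75 (2.35–5.76), Gsr, glutathione reductase, at 0.383 (0.123–0.904) and Ggct at 0.124 (0.0149–0.450).

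Between deep and upper layers, the lists gave 3 higher and 0 lower of 9, 0 of 7, 1 and 0 of 12, 1 and 2 of 8, and 0 and 1 of 8, beside 6.73% higher and 5.59% lower of all genes. Aldh1b1 was at 3.30 (2.40–4.54), Aldh3a2 at 2.25 (1.35–3.71), Esd, a hydrolase of glutathione thioesters, at 2.14 (1.92–2.39), Abcc1, an exporter of glutathione conjugates, at 2.11 (1.44–3.06) and Mgst3 at 2.03 (1.81–2.26). Gstm7 was at 0.146 (0.0658–0.283), Gstt1 at 0.353 (0.124–0.820) and Txnrd1, thioredoxin reductase, at 0.465 (0.407–0.530).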

How the data were processed

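The authors deposited raw UMI counts per gene symbol and cell, with no normalization, and the total UMI and gene numbers of each cell, which equalled the sums of the table in all 11062 cells. The submitters' processing notes name STAR, Cell Ranger, Seurat and the build mm9, so no gene coordinates of the data are given. How cells were called is not given in the sources used here. No cell had under 500 UMIs.

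Counts were analysed in Python 3.11.15 with NumPy 2.4.6 and SciPy 1.17.1, and plotted in matplotlib 3.10.9. Gates were minima and maxima of raw UMIs of markers. Cells with at least 4000 nuclear-gene UMIs (3594 left out) and under 10% mitochondrial UMIs (28 left out) were thinned to 4000 at random, without mitochondrial genes, and summed. Gates under 30 cells are given as counts. Levels carry exact Poisson intervals, shares Clopper-Pearson intervals, and ratios conditional exact binomial intervals, all at 95% and for counting error only. PCR copies were collapsed by the UMI. A gene was past the fold at a ratio of at least 2 or at most 0.5, among genes with at least 50 UMIs over both sides that are no gate gene. No test was made, since cells of 1 library are not replicates. No doublet caller was run; cells in several gates were left out. The ratios and intervals were run on simulated sums drawn with counting error alone. This could not test the effect of spread between cells, of gating or of thinning. Counting error put some genes with no difference past 2-fold there, a larger share in dividing progenitors and oligodendrocyte precursors than in radial glia and astrocytes.

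The members, lists and settings were chosen with earlier results of these data known. All members are named. Of the other lists, the 3 genes farthest from a ratio of 1 per list and comparison were to be named; outside radial glia and astrocytes only some of those past the fold are given, and Aldh3a2 and Slc7a11 in radial glia, Gsto1 and Mgst3 were named after their values were seen.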

Additional observations from a re-analysis of the deposited data

How the results depend on the processing

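No paired analysis was possible because there is 1 library. Leaving out cells with UMIs of other cell types or of stress genes was chosen after seeing the data. Glo1 relative to layer neurons stayed above 2-fold in all 14 alternatives in radial glia and astrocytes (5.96 to 7.35), dividing progenitors (2.80 to 4.48) and oligodendrocyte precursors (2.10 to 2.60). In dividing progenitors it was 4.48 when cells were thinned to 2000 UMIs, above the interval at 4000. The number of members past 2-fold in radial glia and astrocytes, 5 in the main setting, ran from 4 at 2000 UMIs to 7 at a 1.5-fold limit. Akr1b3 was at 0.627 at 2000 UMIs. In dividing progenitors it was 4 in place of 2 at 2000 UMIs and without thinning, and 6 at a 1.5-fold limit. It was 3 there in another random draw, with gate minima doubled and with genes of at least 10 UMIs. In oligodendrocyte precursors the count of 1 was the least stable: it was 3 at 2000 UMIs, with each of 3 other random draws, in cells of 5000 to 15000 UMIs and without ribosomal protein genes, 2 without thinning, without the deepest 5% of cells, with genes of at least 10 UMIs and in cells with at most 3 UMIs of stress genes, and 4 at 1.5-fold. In interneurons it was 1 (Aldh9a1) in place of 0 at 2000 UMIs, with gate minima doubled, in cells of 5000 to 15000 UMIs and at 1.5-fold. Between layers it was 2 in place of 1 in another random draw, which added Aldh9a1. The cause was not tested. Genes under about 50 UMIs, Gss above all, are limited by depth.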
